A study of Mus musculus with 25 samples.

Results

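The genes examined here code for the protein coat of the intracellular lipid droplet and for the enzymes that build and break down the triglyceride inside it. They are 10 named genes, Plin2, Plin3, Plin4, Plin5, Pnpla2, Abhd5, Lipe, Mgll, Dgat1 and Dgat2, out of 35969 genes for which transcript values could be summed. Each gene's level is the sum of the TPM of its annotated transcripts (TPM is transcript abundance corrected for transcript length and set to the same total in every library), divided by a scaling factor for its library and written below as scaled TPM. All 10 had a mean of at least 1 scaled TPM and were among the 11983 genes that entered the tests.

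Bulk polyA RNA came from the left ventricle of 25 male mice, 5 in each of 5 groups. WT CNTL and GPx4+/- CNTL mice ate control chow with 6% of energy from fat, and WT HFHS and GPx4+/- HFHS mice ate a high fat high sucrose (HFHS) diet with 35.5% of energy from fat, each for 16 weeks from an age of 8 to 10 weeks. The fifth group, WT HFHS + Carnosine, also drank the dipeptide carnosine at 80 mM from week 7. GPx4+/- mice, heterozygous for glutathione peroxidase 4 in all of their cells, and WT mice were littermates from a line backcrossed to C57BL6/J. The study's mice were fasted and then given dextrose or saline before they were killed, and the labels do not say which of these 25 mice received which. In tissue of mixed cells, fewer cells of a type and less RNA per cell cannot be told apart.

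Cardiomyocytes store fatty acids for a short time as triglyceride in small droplets that sit close to mitochondria. Diacylglycerol acyltransferases (Dgat1 and Dgat2) add the last fatty acid. Perilipins coat the droplet, and Plin5 in particular holds droplets against mitochondria in oxidative muscle. Release runs in sequence through adipose triglyceride lipase (Pnpla2) with its activator Abhd5, then hormone-sensitive lipase (Lipe), then monoacylglycerol lipase (Mgll). Several of these genes are known targets of the fatty acid receptor PPAR alpha, which binds DNA with its partner RXR at direct repeats of a hexamer.

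To show where that hexamer lies, the stretch from 250 to 51 bases before each RefSeq transcription start (build GRCm38.p6) was searched on both strands for AGGTCA or its reverse complement TGACCT. Such a stretch was held for 8 of the 10 genes, in 11 windows. The hexamer was found in 3 of these windows, those of Abhd5, Plin2 and Plin5, and in 11.4% of all 32851 windows of the same length. The window with the hexamer is printed for each of these 3 genes. Abhd5 is the gene of the 10 that passed the test for diet, and Plin2 and Plin5 are the coat genes that share the hexamer. Plin5 also has a window without the hexamer, chr17:56117349-56117548, which is not printed. Capitals mark the hexamer.
Abhd5, chr9:122351366-122351565, plus strand: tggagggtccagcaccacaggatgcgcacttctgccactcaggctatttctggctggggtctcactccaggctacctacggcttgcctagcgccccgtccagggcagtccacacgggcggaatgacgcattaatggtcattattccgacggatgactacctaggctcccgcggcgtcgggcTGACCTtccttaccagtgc
Plin2, chr4:86670110-86670309, minus strand: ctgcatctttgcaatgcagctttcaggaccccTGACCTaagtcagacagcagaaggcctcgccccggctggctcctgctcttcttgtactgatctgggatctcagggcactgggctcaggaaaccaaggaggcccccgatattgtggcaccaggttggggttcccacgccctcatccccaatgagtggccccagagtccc
Plin5, chr17:56117599-56117798, minus strand: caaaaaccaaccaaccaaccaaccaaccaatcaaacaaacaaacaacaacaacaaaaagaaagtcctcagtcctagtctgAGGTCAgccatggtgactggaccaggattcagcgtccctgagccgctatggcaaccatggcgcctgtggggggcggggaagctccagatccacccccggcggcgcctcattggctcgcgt
The exact direct repeat AGGTCANAGGTCA (N is any base, and each repeat also holds the hexamer) was in none of the 11 windows and in 0.0244% of all windows. The E-box CACGTG was in 1 of the 11, upstream of Lipe, against 4.34% of all. These matches describe the letters of the windows and not the binding of a factor.

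The targeted gene followed the labels. Gpx4 was between 250 and 382 scaled TPM in the 10 GPx4+/- mice and between 590 and 777 in the 15 WT mice. The 6 cardiomyocyte markers summed to between 34930 and 42980 scaled TPM in every mouse. Adipocyte markers, which matter here because several of the 10 genes are also high in fat cells, summed to between 2.29 and 29.1 scaled TPM, and the defining fat cell gene Adipoq did not exceed 3.17. The median of that sum was 11.3 in the WT HFHS mice and between 4.19 and 5.92 in the other groups. The extraction protocol names left ventricular tissue, but atrial markers summed to between 579.6 and 7196 scaled TPM in 5 mice and to between 30.5 and 275.7 in the other 20. Smooth muscle and fibroblast sums were highest in WT HFHS replicate 4, at 520.8 and 466.5. These 6 mice are left out together where said below. With diet over both genotypes 2 of 3 fibroblast markers passed as higher (median 0.29), where 8.33% of all genes tested passed. There 0 of 4 smooth muscle markers passed (all 4 higher, median 0.57) and 1 of 6 cardiomyocyte markers passed as lower (median −0.09). No atrial, hepatocyte, macrophage or endothelial marker passed in that comparison, with all 4 atrial markers lower (median −1.10), all 4 hepatocyte markers lower (median −0.34), all 4 macrophage markers higher (median 0.10) and all 3 endothelial markers higher (median 0.09). Of 9 adipocyte markers 3 were tested and 1 passed as higher, Adig (0.64, limma adjusted p = 0.00201), while Car3 and Cfd had estimates below 0. Adig also passed in GPx4+/- mice, where 3.34% of all genes did. Hepatocyte markers summed to 1106 scaled TPM in GPx4+/- CNTL replicate 2, 94.4 in GPx4+/- HFHS replicate 1 and 58.3 in GPx4+/- HFHS replicate 3, and to between 1.43 and 13.8 in the other 22 mice. These 3 mice were left out in an alternative chosen after the data were seen. GPx4+/- CNTL replicate 2 also belongs to the 6 mice above, with an atrial sum of 1480. The part of these cell types in the diet results below was not tested beyond leaving out mice and fitting the adipocyte score. That score is the mean, over the 9 adipocyte markers, of a mouse's log2 level less the marker's mean over all mice. The markers not tested had means below 1 scaled TPM, and Adig is part of the score, so it measures fat cell content only roughly. Mitochondrial transcripts took between 31.3% and 48.7% of TPM, with the highest share in GPx4+/- HFHS replicate 2. TPM keeps no read depth, so no counting error can be given.

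In WT CNTL hearts the triglyceride lipase and the acyltransferase Dgat2 had the highest levels of the 10 genes. Pnpla2 stood at 304 ± 30.4 scaled TPM (SD, n = 5) and Dgat2 at 252 ± 32.0, and their values overlapped. Plin5 followed at 137 ± 23.9 and Plin3 at 92.6 ± 5.03, neither overlapping its neighbours. Mgll at 76.7 ± 7.88, Plin2 at 60.9 ± 9.80 and Plin4 at 60.3 ± 10.0 overlapped in turn. Lipe at 40.9 ± 4.13, Abhd5 at 29.9 ± 1.98 and Dgat1 at 13.2 ± 1.56 were each apart from the next. Over all 25 mice the spread was least for Abhd5 (coefficient of variation 8.02%) and Mgll (8.51%) and most for Plin5 (20.0%) and Lipe (17.6%). Plin1, the fat cell perilipin, averaged 0.357 scaled TPM over the 25 mice, below the minimum for testing.

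**Figure D1:**
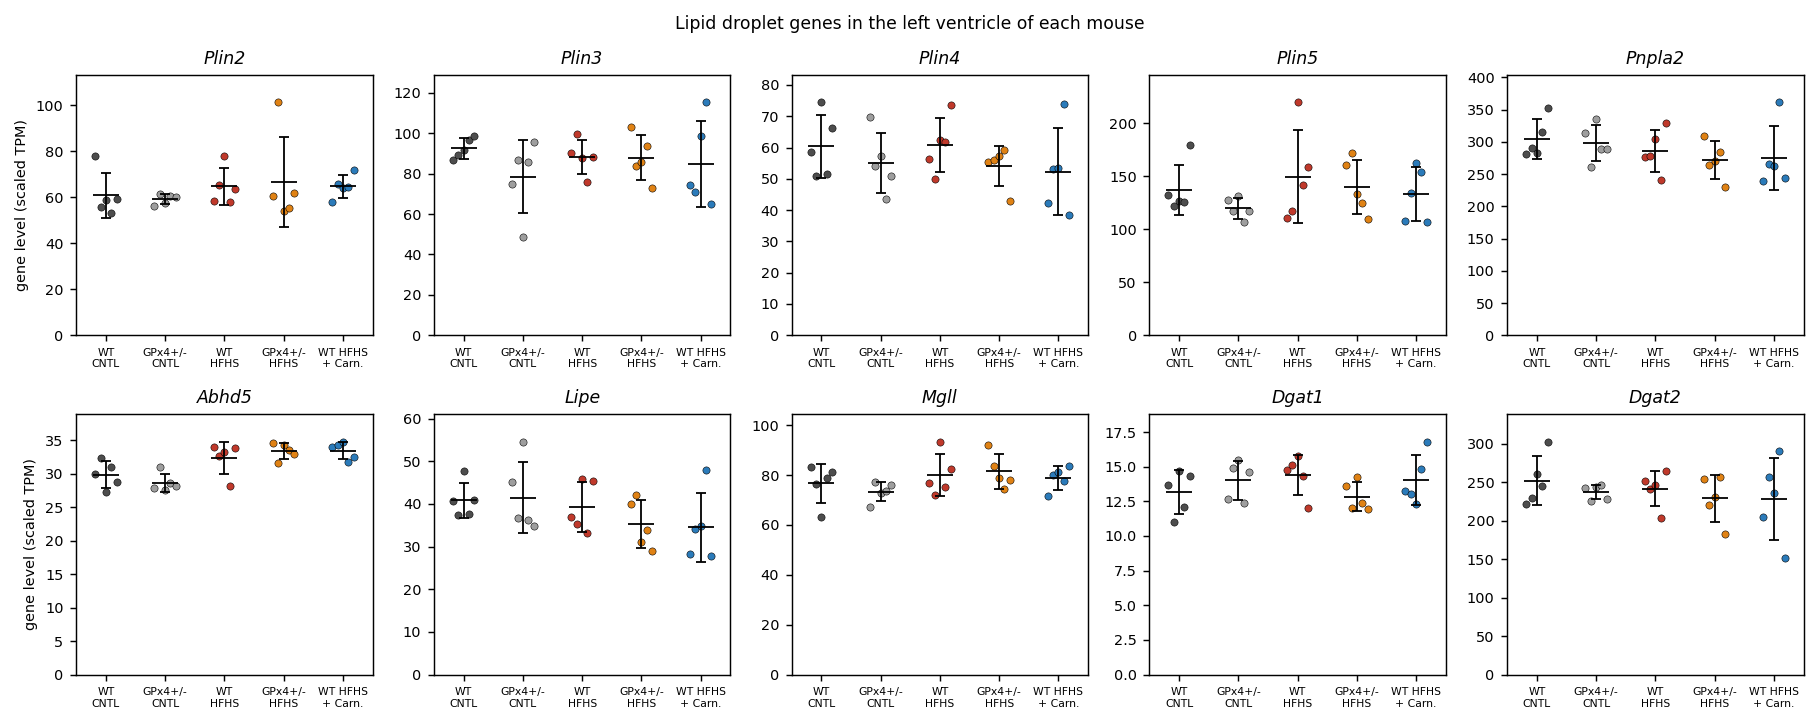
Level of each of the 10 genes (scaled TPM, linear axis from 0) in the left ventricle of each mouse. Points are mice, 5 in each group, and bars give the mean ± SD. Abhd5 sits between 31.6 and 34.7 in the GPx4+/- HFHS mice, above all GPx4+/- CNTL mice, while the 2 diet groups overlap within each genotype for the other genes.

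Ratios between genes that act together were taken within each heart, on the per-length scale. Dgat2 was 16.2 to 21.1 times Dgat1 in WT CNTL mice, and over all 25 mice the ratio ran from 9.04 in WT HFHS + Carnosine replicate 5 to 22.1. Pnpla2 was 8.96 to 12.2 times its activator Abhd5 in WT CNTL mice. It was 8.16 to 9.71 times Abhd5 in WT HFHS mice and 7.03 to 11.4 times in WT HFHS + Carnosine mice. The ratio was 6.96 to 8.93 in GPx4+/- HFHS mice, and 8.43 to 12.2 in GPx4+/- CNTL mice. The ratios are given as a description, with no test.

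The diet comparison asked whether 16 weeks of HFHS feeding moved these genes. Over both genotypes 1 of the 10 genes passed the test (adjusted p under 0.05, limma across all genes with Benjamini-Hochberg adjustment), against 8.33% of all genes tested. That gene was Abhd5 (CGI-58), the coactivator that triglyceride lipase needs for full activity, which rose. In all genes tested 998 passed, of which 56.2% were higher, or 19.9% of the 714 that passed when TPM were used as deposited, without scaling. The median log2 fold change of the 10 genes was 0.03, beside 0.00 over all genes.

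Abhd5 lies on chromosome 9 (122351608 to 122381524, plus strand, GRCm38). It was 30.04, 32.4, 27.2, 31.05 and 28.8 scaled TPM in the WT CNTL mice, and 34.0, 32.7, 33.2, 28.2 and 33.9 in the WT HFHS mice. In WT mice 4 of the 5 HFHS values were above every control value and the other was inside the control range. It was 27.8, 31.05, 27.6, 28.6 and 28.3 in the GPx4+/- CNTL mice, and 34.6, 31.6, 34.4, 33.5 and 33.0 in the GPx4+/- HFHS mice. In GPx4+/- mice the groups did not overlap, which held for 4.47% of all genes tested. The difference over both genotypes was 0.17 on the log2 scale (SE 0.039, limma adjusted p = 0.0122), a level 12.2% higher (95% interval 6.06% to 18.8%). It was 0.19 (adjusted p = 0.00612) without the 6 mice with high atrial or smooth muscle markers and 0.17 (adjusted p = 0.00894) with the adipocyte score in the fit.

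Within GPx4+/- mice the Abhd5 difference was 0.22 (SE 0.055, limma adjusted p = 0.0358), where 1 of the 10 genes and 3.34% of all genes passed (65.2% of those higher, or 8.73% with TPM as deposited). Two-sided exact permutation of the mice gave an unadjusted p = 0.00794, the smallest that 5 against 5 can give. Within WT mice it was 0.11 (SE 0.055, limma adjusted p = 0.310), where 0 of the 10 genes and 1.19% of all genes passed, and 0.16 without WT HFHS replicate 4, the low mouse (adjusted p = 0.153). The 2 differences were not shown to differ (interaction 0.11, SE 0.078, limma adjusted p = 0.775). With TPM used as deposited the difference over both genotypes was 0.12 and did not pass (limma adjusted p = 0.214), and it was 0.17 above the median of all genes on that scale, against 0.17 with scaling. In GPx4+/- mice alone it fell to 0.11 with TPM as deposited and the call was lost (limma adjusted p = 0.399). That call was also lost without a minimum level (limma adjusted p = 0.0557), with the replicate block (limma adjusted p = 0.061) and when any 1 of 8 GPx4+/- mice was left out (limma adjusted p up to 0.0870). GPx4+/- HFHS replicates 1 and 3 and GPx4+/- CNTL replicate 2, the 3 mice with high hepatocyte markers, had the highest Abhd5 of their groups. Without these 3 mice the difference in GPx4+/- mice was 0.22 and did not pass (SE 0.067, limma adjusted p = 0.111), and over both genotypes it was 0.17 and passed (limma adjusted p = 0.0356).

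In the HFHS mice given carnosine, Abhd5 was 34.0, 34.3, 34.8, 31.8 and 32.6 scaled TPM, and 4 of these 5 values were above every WT CNTL value. Against WT CNTL the difference was 0.16 (SE 0.054, limma adjusted p = 0.230), and it did not pass, where 0 of the 10 genes and 0.234% of all genes did (78.6% of those higher, or 51.7% with TPM as deposited). This comparison shares its controls with the diet comparison in WT mice.

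Most Abhd5 signal fell on a pair of transcripts. Abhd5-201, annotated as a target of nonsense-mediated decay, took 53.4% of the gene's TPM on average, and Abhd5-204, annotated as protein-coding, took 34.6%. Abhd5-204 was between 8.52 and 10.8 scaled TPM in WT CNTL mice and between 11.1 and 12.7 in WT HFHS mice, which do not overlap, as in 2.94% of the 23693 transcripts with a mean of at least 1 scaled TPM. It was between 8.54 and 11.2 in GPx4+/- CNTL mice and between 10.7 and 13.2 in GPx4+/- HFHS mice, which overlap. Abhd5-201 was between 15.0 and 19.1 in WT CNTL mice and between 14.7 and 18.8 in WT HFHS mice (means 16.3 and 16.7), and between 14.4 and 17.2 in GPx4+/- CNTL mice and between 14.7 and 19.3 in GPx4+/- HFHS mice (means 15.9 and 17.6), so that the ranges overlapped in both genotypes. When only protein-coding transcripts were summed, the diet difference of Abhd5 over both genotypes was 0.26 (SE 0.048, limma adjusted p = 0.00201) within GPx4+/- mice 0.34 (SE 0.068, limma adjusted p = 0.00924) and within WT mice 0.18 (SE 0.068, limma adjusted p = 0.172), which did not pass. An antisense gene, A730085K08Rik, overlaps the locus over 950 bases and was not among the quantified transcripts. The libraries are stranded, but whether strand was used in quantification is not given in the sources used here.

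**Figure D2:**
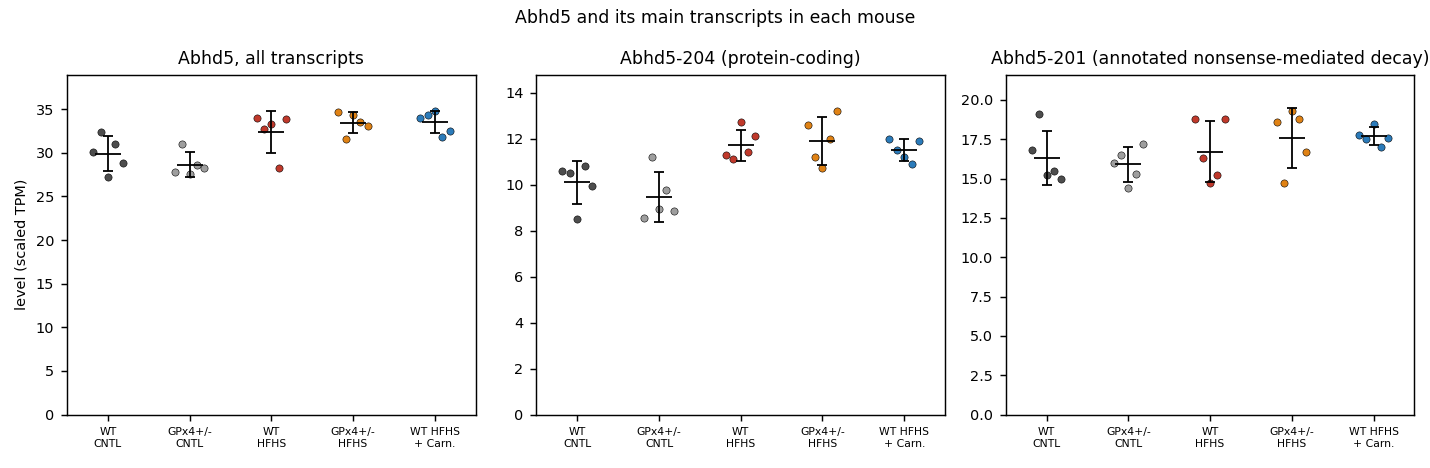
Abhd5 as the sum of all its transcripts and as its protein-coding transcript Abhd5-204 and its transcript Abhd5-201, in scaled TPM on linear axes from 0, for each mouse with the group mean ± SD (n = 5). Abhd5-204 lies at 8.52 to 10.8 in WT CNTL and at 11.1 to 12.7 in WT HFHS, while the ranges of Abhd5-201 overlap.

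The perilipin coat genes did not pass the test for diet. Plin2 (chromosome 4, 86648386 to 86670060, minus strand), the perilipin that accumulates with droplet lipid in most tissues, was 77.9, 55.7, 58.6, 53.1 and 59.4 scaled TPM in WT CNTL mice and 58.5, 65.4, 78.0, 58.1 and 63.5 in WT HFHS mice. It was 56.3, 61.3, 57.5, 60.5 and 60.0 in GPx4+/- CNTL mice and 60.5, 101.2, 54.2, 55.1 and 62.0 in GPx4+/- HFHS mice. The groups overlapped, with GPx4+/- HFHS replicate 2 far above all other mice. The difference over both genotypes was 0.11 (SE 0.096, limma adjusted p = 0.522), and 0.03 without that mouse (adjusted p = 0.823).

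Plin3, Plin4 and Plin5 are neighbours on chromosome 17, all on the minus strand within 192 kb (56100591 to 56292873). Plin5, the perilipin of oxidative tissues, was 132, 122, 126, 126 and 180 scaled TPM in WT CNTL mice and 111, 117, 220, 142 and 159 in WT HFHS mice. It was 127, 117, 132, 107 and 117 in GPx4+/- CNTL mice and 161, 172, 133, 125 and 110 in GPx4+/- HFHS mice. In WT mice the HFHS values lay on both sides of the control range, and in GPx4+/- mice 3 of 5 HFHS values were above every control value and none was below. Its diet difference over both genotypes was 0.15 (SE 0.11, limma adjusted p = 0.4298), with a 95% interval from −5.35% to 30.5%, and without WT HFHS replicate 3, the mouse at 220, it was 0.08 (adjusted p = 0.670).

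Plin4, a coat protein of adipocytes and muscle, was between 51.05 and 74.4 scaled TPM in WT CNTL mice and between 49.9 and 73.5 in WT HFHS mice. Its diet difference over both genotypes was 0.00 (SE 0.091), with an interval from −12.4% to 13.9%. Plin3, a perilipin that also binds other membranes, differed by 0.06 (SE 0.094, limma adjusted p = 0.743), and by −0.02 to 0.10 with a mouse left out. Plin3 was 48.8 in GPx4+/- CNTL replicate 3 and 75.1 to 95.5 in the other mice of that group. In GPx4+/- mice the diet differences were 0.19 for Plin3 (SE 0.13, limma adjusted p = 0.479) and 0.21 for Plin5 (SE 0.16, limma adjusted p = 0.524), and in WT mice they were −0.07 and 0.10.

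Of the lipases none but the coactivator passed. Pnpla2 (chromosome 7, 141455198 to 141460743, plus strand), which cuts the first fatty acid from triglyceride, was between 281 and 353 scaled TPM in WT CNTL mice, 241 and 329 in WT HFHS mice, 262 and 336 in GPx4+/- CNTL mice and 230 and 309 in GPx4+/- HFHS mice. Its diet difference over both genotypes was −0.11 (SE 0.064, limma adjusted p = 0.296), with an interval from −15.6% to 1.50%. Lipe (chromosome 7, 25379527 to 25398710, minus strand), which cuts diacylglycerol, was between 37.5 and 47.7 in WT CNTL mice, 33.3 and 45.9 in WT HFHS mice, 34.8 and 54.6 in GPx4+/- CNTL mice and 29.0 and 42.1 in GPx4+/- HFHS mice. It differed by −0.14 (SE 0.091, limma adjusted p = 0.349), and by −0.09 without GPx4+/- CNTL replicate 3, its highest mouse. Mgll (chromosome 6, 88724412 to 88828360, plus strand), which cuts monoacylglycerol, was between 63.4 and 83.4 in WT CNTL mice, 72.1 and 93.4 in WT HFHS mice, 67.2 and 77.2 in GPx4+/- CNTL mice and 74.5 and 92.3 in GPx4+/- HFHS mice. Mgll differed by 0.10 (SE 0.055, limma adjusted p = 0.25), with an interval from −0.694% to 16.5%. Over 32 alternatives this difference ran from 0.05 to 0.12 (limma adjusted p from 0.103 to 0.638). In GPx4+/- mice 4 of the 5 HFHS values of Mgll were above every control value (exact permutation p = 0.0317, two-sided). That p is not adjusted for the other genes and comparisons that were permuted. The Mgll difference in GPx4+/- mice was 0.15 (SE 0.078, limma adjusted p = 0.326). Both signs thus occurred among the lipases, and each interval held no change. Mgll moved against the adipocyte marker score across mice within groups (Pearson r = −0.67, rho = −0.51, n = 25). With that score in the fit its diet difference over both genotypes was 0.11 (SE 0.041, limma adjusted p = 0.103).

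Neither acyltransferase passed the test for diet. Dgat1 was between 11.0 and 14.7 scaled TPM in WT CNTL mice, 12.0 and 15.8 in WT HFHS mice, 12.4 and 15.5 in GPx4+/- CNTL mice and 11.9 and 14.3 in GPx4+/- HFHS mice. Dgat1 (chromosome 15, 76502015 to 76511953, minus strand), which esterifies fatty acids taken up from outside the cell, differed by 0.00 (SE 0.062), with an interval from −8.48% to 9.59%. Dgat2 (chromosome 7, 99153658 to 99182719, minus strand), which favours newly made fatty acids, differed by −0.06 (SE 0.065, limma adjusted p = 0.628), and by −0.02 without GPx4+/- HFHS replicate 5 or without WT CNTL replicate 5, and −0.03 without WT HFHS replicate 4. Dgat1 was 0.13 higher with diet in WT mice and 0.12 lower in GPx4+/- mice, and the difference between these was −0.25 (SE 0.12, unadjusted p = 0.0602, limma adjusted p = 0.691). Only 56.0% of the Dgat1 sum came from protein-coding transcripts, the rest from forms such as retained introns, and with protein-coding transcripts alone its diet difference over both genotypes was −0.07 and the difference between genotypes turned to 0.07 (SE 0.13, limma adjusted p = 0.945).

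**Figure D3:**
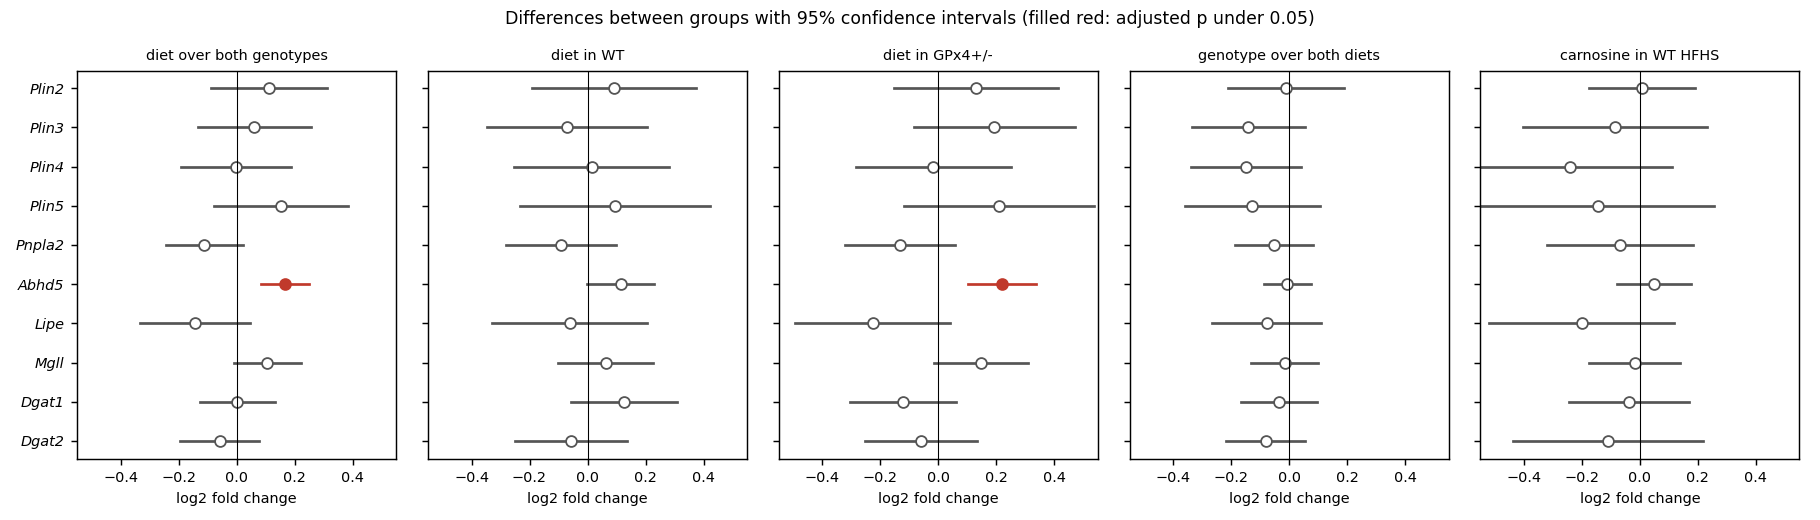
Log2 fold change of the 10 genes with its 95% confidence interval in 5 comparisons, each group having 5 mice. Filled red marks an adjusted p under 0.05, which holds for Abhd5 in the diet comparison over both genotypes (0.17) and in GPx4+/- mice (0.22), and for no gene in the genotype and carnosine panels.

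The genotype comparison asked whether loss of a Gpx4 allele moved the same genes. None of the 10 passed, against 0.0584% of all genes (7, Gpx4 among them). All 10 point estimates over both diets were below 0, from −0.01 for Abhd5 to −0.15 for Plin4 (SE 0.091, limma adjusted p = 1.00), with none of the 10 at an unadjusted p under 0.05. The 10 genes share the same mice and vary together, so this count of signs carries no test. The largest difference on control diet was that of Plin3 at −0.27 (SE 0.13, unadjusted p = 0.0536, limma adjusted p = 0.799), and over both diets it was −0.14, or −0.06 without GPx4+/- CNTL replicate 3. In the test of whether the diet difference depended on genotype 0 genes passed of all tested (limma), with 856 at an unadjusted p under 0.05, none of them among the 10.

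The carnosine comparison set WT HFHS + Carnosine against WT HFHS. None of the 10 genes passed and 0% of all genes did (limma, 504 at an unadjusted p under 0.05). The median log2 fold change of the 10 genes, which share the same mice and vary together, was −0.08, beside 0.00 over all genes. Plin4 was 42.3, 53.3, 53.5, 74.0 and 38.3 scaled TPM with carnosine and 56.4, 49.9, 62.3, 61.8 and 73.5 without. Lipe was 28.2, 34.2, 34.7, 47.9 and 27.8 with carnosine and 36.96, 35.2, 45.9, 33.3 and 45.4 without. In both genes WT HFHS + Carnosine replicate 4 was the highest treated mouse and the groups overlapped. The differences were −0.24 for Plin4 (SE 0.16, limma adjusted p = 0.947) and −0.20 for Lipe (SE 0.15, limma adjusted p = 0.947), and without that mouse they were −0.38 and −0.32 (adjusted p = 0.758 for both). Without WT HFHS + Carnosine replicate 5, the lowest treated mouse, they were −0.14 and −0.13. Abhd5 differed by 0.05, with an interval from −5.40% to 13.1%, and by 0.00 without WT HFHS replicate 4.

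Of 37 other genes of droplet formation and triglyceride turnover, 31 were tested. Over both genotypes 2 rose with diet, 0 fell and 29 did not pass, where 8.33% of all genes passed, with a median of 0.02 beside 0.00 over all genes. Cidea, which drives fusion and enlargement of droplets, was 24.3 to 28.4 scaled TPM in WT CNTL mice and 27.6 to 32.8 in WT HFHS mice, and 19.2 to 26.6 in GPx4+/- CNTL mice and 27.7 to 31.4 in GPx4+/- HFHS mice. The groups overlapped slightly in WT mice. They did not overlap in GPx4+/- mice, which held for 4.47% of all genes tested. Its difference was 0.29 (SE 0.055, limma adjusted p = 0.00295), a level 22.4% higher (95% interval 12.9% to 32.6%). Cidea also marks brown fat, whose defining gene Ucp1 did not exceed 0.0320 scaled TPM in any mouse.

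Abhd6, which also cuts monoacylglycerol, rose by 0.15 (SE 0.041, limma adjusted p = 0.0246). Its call was lost with TPM as deposited (0.11, limma adjusted p = 0.244), with the replicate block (limma adjusted p = 0.0513) and without the 6 mice with high atrial or smooth muscle markers (0.17, limma adjusted p = 0.0636), and over 32 alternatives the difference ran from 0.11 to 0.18. The inhibitors of triglyceride lipase did not pass. G0s2 was 39.7 ± 2.96 scaled TPM in WT CNTL and 43.6 ± 1.85 in WT HFHS mice (SD, n = 5), and its difference over both genotypes was 0.09 (SE 0.056). Hilpda, at 4.03 ± 0.360 in WT CNTL mice, differed by 0.03 (SE 0.080). Of the acylation enzymes that lead to diacylglycerol 0 of 12 passed, and of the droplet assembly genes 0 of 5. Plin1 and Cidec, droplet proteins of fat cells, averaged 0.357 and 0.533 scaled TPM and were not tested.

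**Figure D4:**
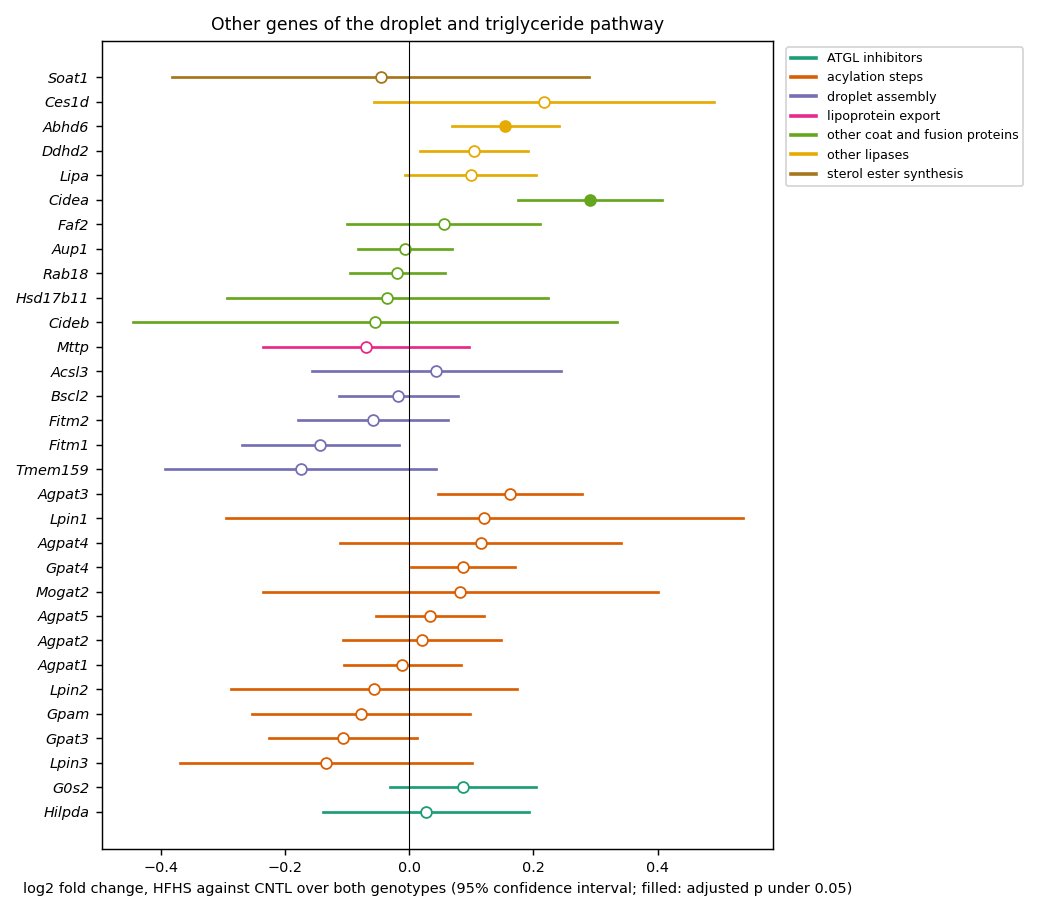
Log2 fold change with diet over both genotypes, with its 95% confidence interval, for the 31 tested genes of the wider pathway, coloured by role. Filled points mark an adjusted p under 0.05, which only Cidea (0.29) and Abhd6 (0.15) reach among these genes.

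The list of PPAR alpha targets moved in both directions with diet. Of 13 genes 5 rose, 2 fell and 6 did not pass over both genotypes, where 8.33% of all genes passed, with a median of 0.16 beside 0.00 over all genes. Fabp3, the fatty acid binding protein of heart, rose by 0.34 (SE 0.040, limma adjusted p = 4.89e-05). The other genes that rose act in mitochondrial fatty acid entry and beta-oxidation, Slc25a20 by 0.30, Acadm by 0.20, Hadha by 0.20 and Cpt1b by 0.13, with Hadha called in 16 of 32 alternatives and Acadm and Cpt1b each in 29. All 3 lost their calls with TPM as deposited (Acadm 0.15, Hadha 0.15 and Cpt1b 0.08), without the 6 mice with high atrial or smooth muscle markers (0.18, 0.16 and 0.11) and without the 3 mice with high hepatocyte markers (0.16, 0.15 and 0.10), with limma adjusted p from 0.0768 to 0.345. Ucp3 fell by 0.62 (SE 0.19, limma adjusted p = 0.0476), a call that held in 11 of 32 alternatives and was lost without those 6 mice (−0.52, adjusted p = 0.206) and without those 3 (−0.57, adjusted p = 0.117), and Cpt1a fell by 0.37 (SE 0.074, limma adjusted p = 0.00447).

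Many of the droplet genes varied together from mouse to mouse inside the groups. Each mouse's log2 level was taken as its deviation from the mean of its group, and Pearson's r was computed over the 25 mice as a description, with no p. The points share a library, its scaling and its share of mitochondrial RNA. Of 45 pairs of the 10 genes, 11 (24.4%) had r above 0.5, as had 2.97% of all pairs of tested genes. There were 13 pairs (28.9%) below 0, against 50.2% of all pairs, and 0 below −0.5, against 2.67% of all pairs. The strongest were Pnpla2 with Dgat2 (r = 0.78, rho = 0.76), Plin4 with Lipe (r = 0.76, rho = 0.75) and Pnpla2 with Lipe (r = 0.75, rho = 0.67). Without the 2 mice most distant in one gene or in the other, r was 0.77 and 0.68 for the first pair, 0.74 and 0.66 for the second and 0.61 and 0.70 for the third. These joined a lipase with the enzyme that refills the droplet, a coat gene with a lipase and the first lipase with the second.

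Abhd5 was in none of the pairs above 0.5. Its r with the other 9 genes ran from −0.31 (Dgat1) to 0.38 (Mgll), and with its partner Pnpla2 it was 0.04. The genes most like Abhd5 over the 25 mice were 4933434E20Rik (r = 0.81, rho = 0.71), Acot13 (r = 0.78, rho = 0.72), a thioesterase of mitochondria, and Acyp1 (r = 0.78, rho = 0.72), and without the 2 most distant mice r was 0.64, 0.64 and 0.67. Plin2, whose r with other members ran from −0.19 (Dgat2) to 0.44 (Mgll), and Dgat1, whose r ran from −0.31 to 0.11, likewise had no pair above 0.5.

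With the PPAR alpha list, Lipe, Plin5 and Pnpla2 had the highest median r. All 13 values of r were above 0 for Lipe, Plin4, Plin5, Pnpla2 and Dgat1, and no share over all genes is given here. Lipe had a median of 0.59, with the highest r for Mlycd (0.82) and Ucp3 (0.80). Plin5 had a median of 0.51 and was nearest to Ucp3 (0.77) and Pdk4 (0.76). Plin2 had r of 0.68 with Angptl4 and 0.67 with Ucp3, and of −0.25 with Hadha. Plin2 and Ucp3 were both highest among GPx4+/- HFHS mice in replicate 2, at 101.2 and 75.6 scaled TPM. For Abhd5 the median was −0.02, with the highest r for Fabp3 (0.63) and the lowest for Cpt1a (−0.55). The genes that covaried with Lipe and Plin5 across mice, Ucp3 and Pdk4, are known to respond to fasting and feeding, and which mice received dextrose after the fast is not in the labels, so its part in this variation was not tested.

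**Figure D5:**
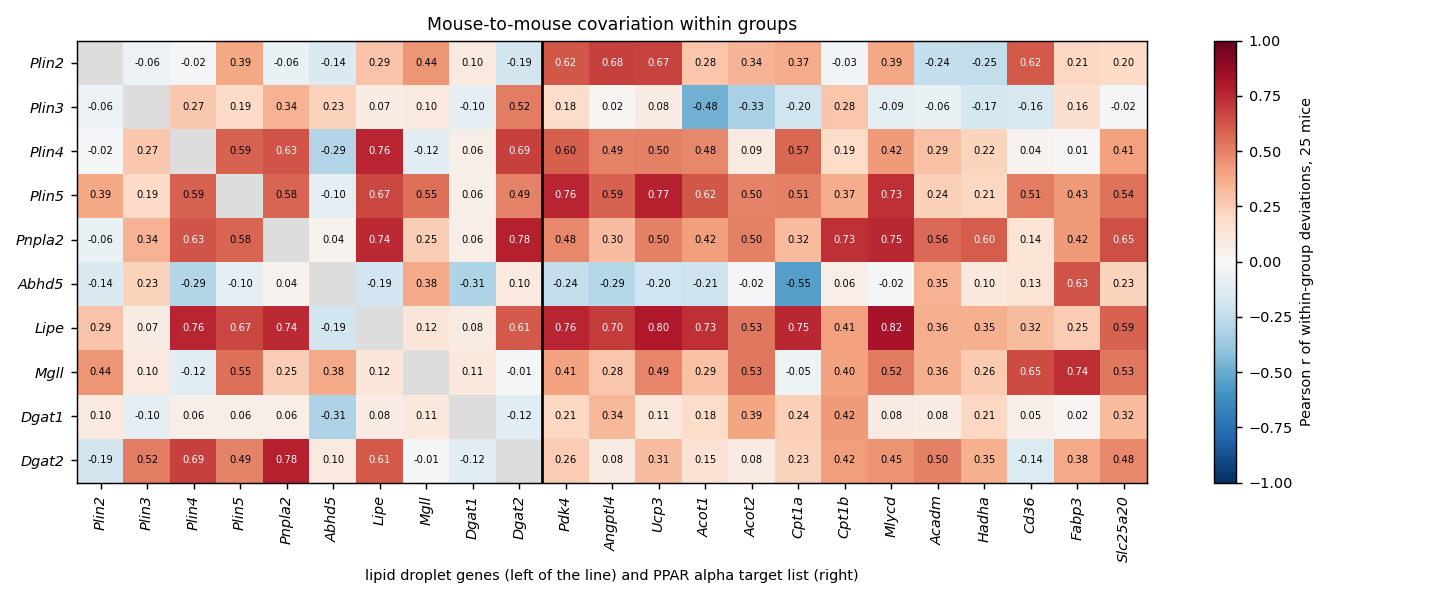
Pearson r of within-group deviations of log2 scaled TPM over the 25 mice, for the 10 droplet genes (rows) with each other (left of the line) and with 13 PPAR alpha target genes (right), red for positive and blue for negative values on a scale from −1 to 1. All values of Lipe, Plin4, Plin5, Pnpla2 and Dgat1 with the PPAR alpha list are above 0. The row of Abhd5 is mostly pale there, with 0.63 for Fabp3 and −0.55 for Cpt1a.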

How the data were processed

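Left ventricular polyA RNA was sequenced from 25 mice. The authors deposited TPM per transcript, a unit without read depth. The submitters' processing notes name kallisto 0.43.1, sleuth 0.30.0 and GRCm38. The study's own tests used gene counts, which were not used here. Header names, not the positions given in the labels, which differ, tied columns to mice. Of 119215 transcripts, 116772 matched GENCODE M21. TPM were summed per gene, scaled by median ratios over 11879 genes (factors 0.865 to 1.16) and set to log2 with a pseudocount of 0.5. Fold changes of low genes are therefore understated. Genes with a mean of at least 1 scaled TPM were tested with limma 3.58.1 (R 4.3.3, trended prior), in a fit of 20 mice for diet and genotype and fits of 10 mice for carnosine and for WT HFHS + Carnosine against WT CNTL, with Benjamini-Hochberg adjustment over all 11983 genes and a threshold of 0.05. The fits were tested on simulated data.

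The members and lists were chosen with earlier results of these data known. The PPAR alpha list is given without 1 gene that is not reported here. All 10 genes are named, together with pathway genes that passed in the diet comparison over both genotypes, PPAR alpha targets, G0s2, Hilpda, Plin1 and Cidec, the 3 genes most like each member that passed, and the 3 strongest pairs. Hadha, Angptl4, Mlycd, Pdk4 and the overlapping antisense gene were named after their values were seen. Replicate numbers come from the labels, which do not tie numbers across groups to shared litters. Same-numbered mice deviated with correlations from −0.34 to 0.23. Alternatives were a pseudocount of 0.1, quantile normalization, unscaled TPM, other minimum levels (0 and 5), sums over protein-coding transcripts, array weights, the replicate block, a single fit of all 25 mice, an adipocyte score as covariate, each mouse left out, 6 mice with high atrial or smooth muscle markers left out and, added after the data were seen, 3 mice with hepatocyte markers above 50 scaled TPM left out. Promoter windows came from RefSeq, and transcripts were aligned with blastn 2.17.0.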

Additional observations from a re-analysis of the deposited data

Results flagged for a closer look

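Among 50 sets of 5 mice (10 genes in 5 groups), 6 held a mouse set apart from the rest of its group, with a gap to its nearest neighbour above 0.71 of the group's range, and chance gives this in about 1 of 20 sets. Plin2 was 77.9 scaled TPM in WT CNTL replicate 1, next 59.4 (gap share 0.746), and 101.2 in GPx4+/- HFHS replicate 2, next 62.0 (0.833), the mouse with the highest mitochondrial share of TPM at 48.7%. Plin4 was 43.0 in GPx4+/- HFHS replicate 5, next 55.3 (0.761). Plin5 was 180 in WT CNTL replicate 5, next 132 (0.826). Pnpla2 was 361 in WT HFHS + Carnosine replicate 4, next 266 (0.775). Abhd5 was 28.2 in WT HFHS replicate 4, next 32.7 (0.776), and this mouse had the highest smooth muscle (520.8) and fibroblast (466.5) marker sums.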

How the results depend on the processing

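With TPM as deposited, 0 droplet genes passed for diet over both genotypes and 0 in GPx4+/- mice, and the median log2 fold change of all genes in GPx4+/- mice was −0.10, beside 0.00 with scaling (interaction −0.11). Relative to it Abhd5 was 0.21 higher with diet in GPx4+/- mice. With every other alternative Abhd5 passed for diet over both genotypes (0.15 to 0.26). In GPx4+/- mice 0 droplet genes passed also with no minimum and with the replicate block, and from 0 to 1 with a mouse left out. Without the 3 mice with high hepatocyte markers, chosen after the data were seen, 0 droplet genes passed in GPx4+/- mice. Diet then called 94 of all genes in WT and 168 in GPx4+/- mice. Acadm, Cpt1b, Hadha and Ucp3 lost their calls, as they did without the 6 mice with high atrial or smooth muscle markers. The sets of 3 and 6 mice share GPx4+/- CNTL replicate 2. Over all genes, diet in WT called 43 with no minimum, 38 with TPM as deposited, 405 with array weights and from 36 to 202 with a mouse left out. Diet in GPx4+/- mice called 235 with no minimum and from 191 to 484 with a mouse left out, with 8.73% higher as deposited against 65.2%. Genotype called 4 with a minimum of 5 and 4 with protein-coding transcripts. The interaction called from 0 to 1, the call coming without WT CNTL replicate 3. WT HFHS + Carnosine against WT CNTL called 0 with no minimum, 53 with quantile normalization (67.9% higher, against 78.6%, and 51.7% as deposited), 52 with protein-coding transcripts (65.4%), 124 with array weights, 141 with all mice in a single fit, 71 with the adipocyte score and from 4 to 78 with a mouse left out. The replicate block, for numbers that do not pair the mice, called 68 genes for diet in WT and 0 for WT HFHS + Carnosine against WT CNTL, and gave Abhd5 an adjusted p of 0.0257 for diet over both genotypes, and Abhd6 lost its call.

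Some differences that had not passed turned sign. The Dgat1 diet by genotype interaction, −0.25, was 0.0683 with protein-coding transcripts. Plin4 with diet was 0.0433 with array weights, 0.0741 without the 6 mice with high atrial or smooth muscle markers and from −0.0415 to 0.0429 with a mouse left out. Dgat1 with diet was −0.0485 as deposited, −0.00201 with quantile normalization, −0.0665 with protein-coding transcripts, −0.0261 without the 3 mice with high hepatocyte markers and from −0.028 to 0.0331 with a mouse left out. Plin3 with diet was from −0.0193 to 0.101 with a mouse left out. Abhd5 was −0.00235 for the interaction as deposited, and for carnosine −0.0227 as deposited and −0.00826 without the 6 mice. Except where a value above shows it, the cause was not tested. TPM hold no depth, and 5 mice a group leave 95% intervals that reach 0.23 on the log2 scale to either side for diet over both genotypes.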

Other observations

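The rule for genes most like a member was extended to all 10 genes after the values had been seen, so the following is a description of these 25 mice. Plin2 varied within groups most like Hsd17b11 (r = 0.87, rho = 0.68, 0.80 without the 2 most distant mice), which codes for another protein of the lipid droplet surface. Pnpla2 was nearest to Acacb (r = 0.90, rho = 0.81), the acetyl-CoA carboxylase that makes malonyl-CoA at the mitochondrion. Lipe was nearest to Slc22a5 (r = 0.86, rho = 0.81), the carnitine transporter. Mgll was nearest to Rxrg (r = 0.84, rho = 0.78), an RXR receptor, and to Hsd17b4 (r = 0.83, rho = 0.81), of peroxisomal beta-oxidation. Dgat2 was nearest to Art1 and Mpst (r = 0.93 for both), Plin5 to Mbd1 (r = 0.91), Plin4 to Pik3r1 (r = 0.87) and Plin3 to Ptgds (r = 0.91). Dgat1 had no partner above 0.69.

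Annotated transcript class divided the genes. Protein-coding transcripts held 100% of the TPM of Plin3, Plin4 and Plin5, but 37.2% of that of Pnpla2 and 37.8% of that of Abhd5, where the leading transcript (Pnpla2-201 with 61.1%, Abhd5-201 with 53.4%) is annotated as a target of nonsense-mediated decay.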
